A study of Drosophila melanogaster with 21 samples.

Results

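Long noncoding RNAs (lncRNAs) of the adult fly head that were well enough measured for a fold change to be read were followed through fasting and loss of Crtc, a coactivator of the transcription factor CREB. A gene was taken when its FlyBase symbol carries the lncRNA: prefix, when it was neither roX1 nor roX2, and when its base mean reached 50 normalized counts in both deposited fasting tables, that of Crtc knockout heads and that of control heads. Of 1795 genes with that prefix, 21 qualified, in tables of 17559 genes. A base mean is the size-factor-normalized count averaged over all libraries of a comparison, so the 21 were chosen by values of the same tables that hold their fasting folds, and those folds are given as a description. A gene abundant in only 1 genotype could not qualify, which limits how far a member can differ between genotypes.

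The compared groups were heads of "crtc ko" flies, fasted for 16 hours (2 libraries) or fed (3 libraries), and heads of w1118 control flies, fasted for 16 hours (2 libraries) or fed (3 libraries), all aged 3 to 5 days and kept on standard media. PolyA RNA was sequenced, so that lncRNAs without a polyA tail were not sampled. The labels give neither the sex of the flies nor how many were pooled, and they do not say whether replicates were separate groups of flies, so the p-values cover only the spread among these libraries, possibly a technical one. For each genotype, the labels place fed library 3 among a set of samples that has no fasted heads, and the fasted and fed groups therefore differ in that set as well. The tables hold no value per library. Levels are given as the authors' base means, and differences as the authors' shrunken log2 folds with standard errors (SE). Base means over the knockout and over the control libraries come from separate tables, each normalized over its own libraries. For the 6327 genes past the base mean threshold in both fasting tables, the median log2 ratio, knockout over control, was -0.23. A base mean lower by about that much over the knockout libraries is therefore not read as a lower level.

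The library labels and the tissue were checked first. Crtc itself had a base mean of 0.36 over the knockout libraries and 339.7 over the control libraries, and folds, knockout over control, of -4.88 ± 0.32 in fasted and -4.48 ± 0.26 in fed heads, in the authors' deposited tables. The gene w (white), whose mutant allele gives the w1118 stock its name, differed as well, but was the higher in the control libraries, which are named for that allele. Its base mean was 4.94 over the knockout and 80.1 over the control libraries in the authors' deposited tables. Its folds there were -2.31 ± 0.34 in fasted (adjusted p = 8.16e-10) and -2.42 ± 0.27 in fed heads (adjusted p = 1.48e-16) by the authors' deposited tables, and the part of such differences between the stocks in the lncRNA folds was not tested. Photoreceptor markers (10 of 10, up to 138886 for ninaE over the knockout and 116783 over the control libraries) and 11 of 11 neuronal markers found had base means above 50 in at least 1 genotype in the authors' deposited tables. Of 11 genes found for accessory gland, testis, ovary and midgut, 9 had base means under 1 in both tables, and the highest was the trypsin gene Try29F at 8.44 over the knockout and 20.5 over the control libraries in the authors' deposited tables.

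Long noncoding RNAs are transcripts that are not read into protein. Some act as RNA, by holding proteins at a place in the nucleus or by guiding them to chromatin, as roX1 and roX2 do on the male X chromosome. Others are host transcripts from which microRNAs or small nucleolar RNAs are cut, or arise from transcription at an enhancer or beside a gene. Among the 21, Hsromega is the best described: it is induced by heat shock and other stress and gathers hnRNP proteins into nuclear omega speckles. Most of the rest carry only a CR number, a systematic name that says nothing of function.

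Besides roX1 and roX2, a pair of RNAs held most of the lncRNA signal. The gene roX1, left out by the rule, had a base mean of 8085 over the knockout and 9919 over the control libraries. CR42862 and noe together made up 79.0% of the summed base means of the 21 lncRNAs over the knockout libraries and 81.8% over the control libraries. The 21 lncRNAs together made up 93.7% of the summed base means of all genes with the prefix besides roX1 and roX2 over the knockout libraries and 94.0% over the control libraries. As a share of all genes, that sum was 1.01% over the knockout and 1.26% over the control libraries. Only 752 of the 1795 genes had a base mean above 0 in both fasting tables, and the plot of base means by genotype shows how few stand far above the threshold.

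**Figure D1:**
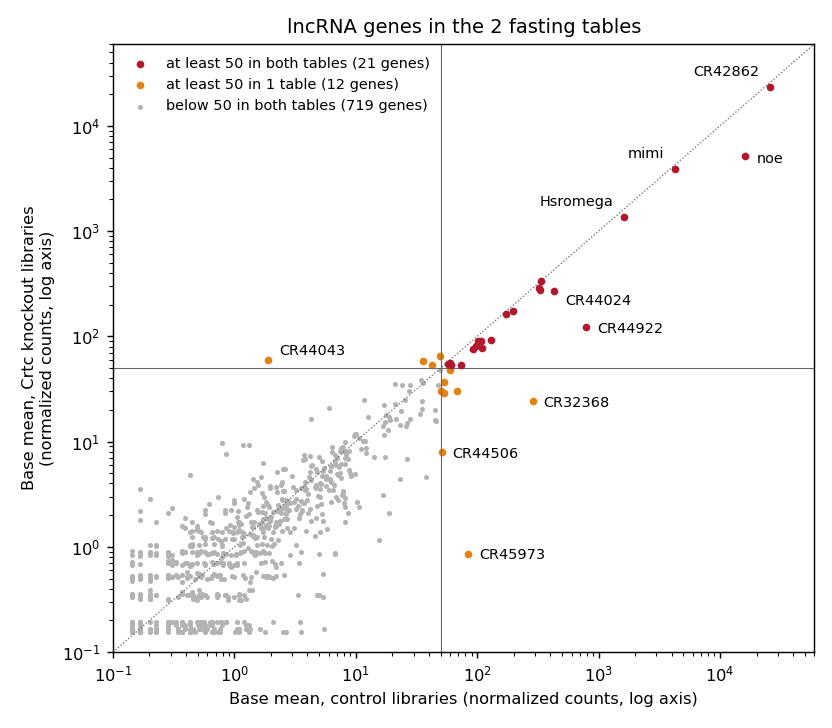
Base mean over the Crtc knockout libraries (y axis) against that over the control libraries (x axis), in normalized counts on log axes, for the 752 lncRNA genes above 0 in both fasting tables; solid lines mark the threshold of 50 and the dotted line equal values. The 21 lncRNAs described here are red, and the 12 genes past the threshold in 1 table only are orange. All 21 lie below the dotted line, noe and CR44922 furthest, and CR32368 and CR45973 are among the orange genes below it. The median gene of 6327 past the threshold in both tables lies below it as well, at a log2 ratio of -0.23.

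Per length the order of levels changed. For each kilobase (kb) of annotated exon, noe had a base mean of 4810 over the knockout libraries and 15046 over the control libraries, which placed it 15th and 5th among 17253 genes with an annotated length. CR42862 followed with 4274 per kb over the knockout and 4722 over the control libraries, mimi with 2490 and 2731, and CR40469, whose single exon has 214 bases, with 1360 and 1497. Hsromega, with a base mean of 1353 over the knockout and 1624 over the control libraries, had only 62.3 and 74.8 per kb, because its annotated exon covers 21.7 kb. At the low end, CR46006 had 8.86 per kb over the knockout and 9.95 over the control libraries, and CR43650 had 8.78 and 10.3. Base means carry no spread between libraries, so neighbours in this order could not be told apart by an error.

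**Figure D2:**
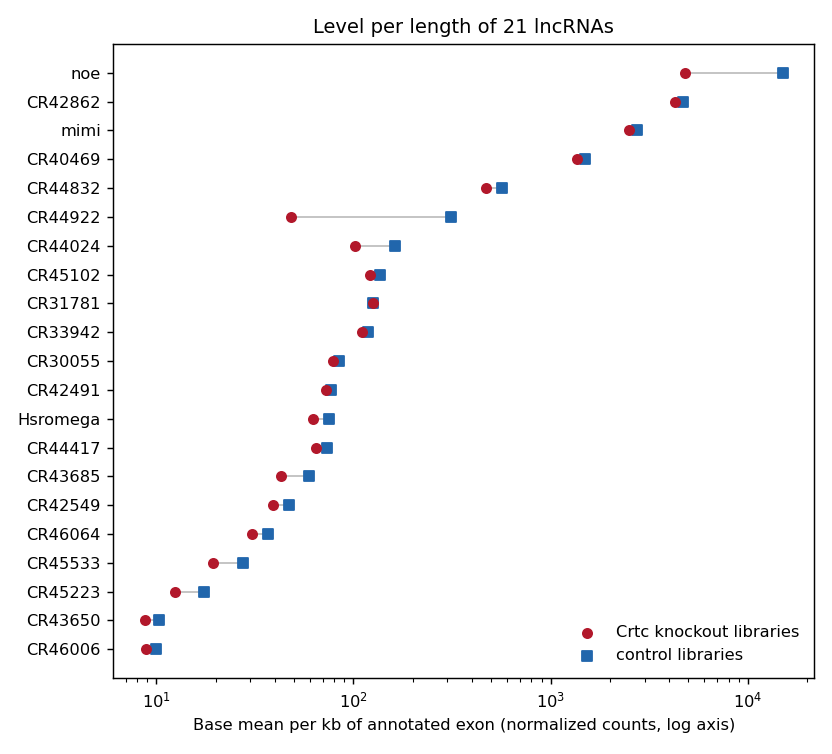
Base mean per kb of annotated exon (normalized counts, log axis) for the 21 lncRNAs, ordered by level in control libraries, with Crtc knockout libraries as red circles and control libraries as blue squares. noe and CR44922 have the widest gaps between genotypes, at 4810 against 15046 and 48.3 against 314 per kb.

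In knockout against control heads, noe and CR44922 were lower in both feeding states, and the other 19 lncRNAs were called in neither. This is 2 of 21 in fasted heads, where 5.39% of all genes with an adjusted p were called, and 2 of 21 in fed heads, where the share was 4.75%. Of all genes, 1.97% were called lower in fasted and 2.49% in fed heads. The median log2 fold of the 21 was -0.13 in fasted heads, against -0.02 over all genes with an adjusted p, and 0.05 in fed heads, against 0.00, in the authors' deposited tables. Cell type markers also differed between genotypes. In fasted knockout heads 10 of 14 muscle genes were called higher and 1 lower, 3 of 10 photoreceptor genes higher and 1 lower, and 5 of 12 fat body genes higher, in the authors' deposited tables. In fed knockout heads 2 of 14 muscle genes were called higher and 1 lower, 4 of 10 photoreceptor genes higher, 2 of 13 fat body genes higher and 2 lower, and 1 of 7 glial genes lower, in the authors' deposited tables. The photoreceptor gene Rh6, an opsin, stood furthest, at 3.55 ± 0.20 in fasted and 3.85 ± 0.18 in fed heads in the authors' deposited tables, and 0 of 11 neuronal genes were called in either state. In bulk heads, fewer cells of a type and less RNA per cell cannot be told apart, and the part of these cell types in the lncRNA folds was not tested.

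The gene noe (FBgn0026197) has 1 exon at chromosome 3L:17400272-17401348, on the minus strand of BDGP6.54. Its base mean was 5180.1 over the knockout libraries and 16205 over the control libraries in the authors' deposited fasting tables. In the authors' deposited table of fasted heads its log2 fold, knockout over control, was -1.23 ± 0.19 (SE), with an adjusted p of 2.12e-08. In that of fed heads, again the authors' deposited table, it was -1.32 ± 0.18, with an adjusted p of 1.04e-11. On fasting noe was called in neither genotype, with folds in the authors' deposited tables of 0.12 ± 0.19 in knockout and -0.01 ± 0.18 in control heads (adjusted p = 0.998 in each). The test of the difference did not pass: the fasting response in knockout minus that in control heads was 0.14 ± 0.26, with a 95% interval of -0.38 to 0.66.

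The whole of noe lies in an intron of blot (bloated tubules, a member of the neurotransmitter transporter family), on the same strand and without shared exon bases. The host transcript moved the other way. blot had a base mean of 261 over the knockout and 159 over the control libraries in the authors' deposited fasting tables. By the authors' deposited tables, blot was higher in knockout heads by 1.05 ± 0.23 when fasted (adjusted p = 0.000316) and by 0.69 ± 0.19 when fed (adjusted p = 0.0078). At lower map positions than blot, CG13731 was hardly measured, with base means of 0.358 over the knockout and 0.166 over the control libraries in the authors' deposited tables. At higher map positions than blot, the exocyst subunit gene Sec3 stood at 0.22 ± 0.26 in fasted and 0.33 ± 0.19 in fed heads in the authors' deposited tables, neither called. noe also lies 258 kb from Crtc on the same chromosome arm. Within 500 kb of Crtc, 7 of 84 genes were called in fasted heads (8.33%), 5 of them lower in knockout. In fed heads 7 of 87 were called (8.05%), again 5 of them lower. The 7 in each state include noe itself, called lower, and its host blot, called higher, and may include Crtc. Over the rest of the genes the shares called were 5.38% and 4.76%. Of these genes, 185 of 9638 were called lower in fasted and 247 of 10001 in fed heads. The part of nearness to Crtc in the fold of noe was not tested.

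CR44922 (FBgn0266227) has 1 exon at chromosome 3R:4375084-4377600, on the plus strand, and overlaps no other annotated gene. Its base mean was 122 over the knockout libraries and 791 over the control libraries in the authors' deposited fasting tables. By the authors' deposited tables, the log2 fold in knockout over control heads was -1.28 ± 0.36 when fasted (adjusted p = 0.00978) and -1.09 ± 0.29 when fed (adjusted p = 0.00513). These SEs were nearly the largest in the tables: of 6327 genes at the same base mean threshold, 2 in fasted and 6 in fed heads had a larger one. In such a fit the SE grows with the spread between libraries of a group up to a ceiling, and a fold with a large SE is shrunken more. Both SEs lie close to their ceilings of 0.359 in fasted and 0.288 in fed heads, beyond which more spread cannot raise them. How far the libraries of CR44922 spread can therefore not be read from these SEs. The plain ratio of its base means, knockout over control, was -2.47 on the log2 scale after centring on the median of the 6327 genes, against -1.41 for noe. Neither protein-coding neighbour was called: CG1090 stood at -0.05 ± 0.20 in fasted and -0.09 ± 0.17 in fed heads, and Sfxn1-3 at 0.28 ± 0.20 and -0.08 ± 0.18, in the authors' deposited tables.

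**Figure D3:**
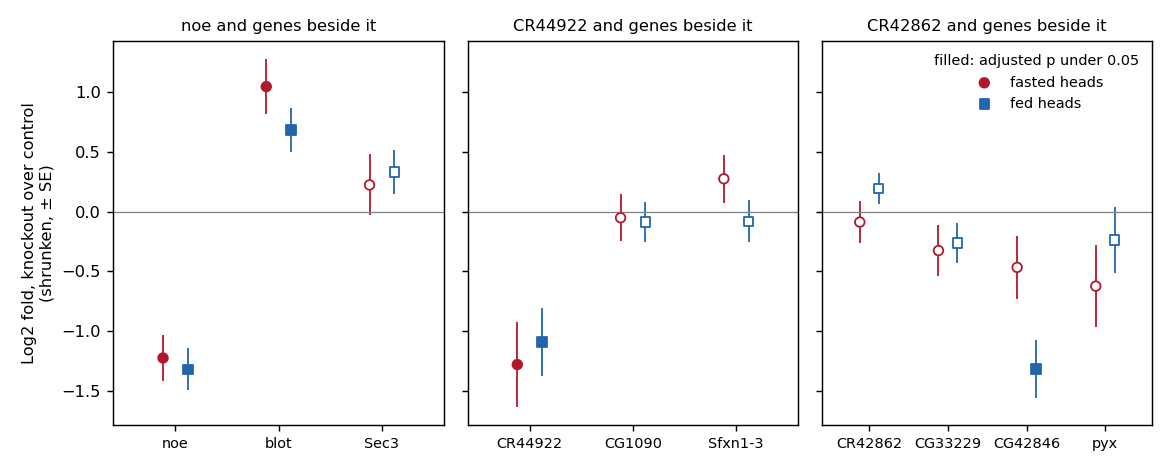
Log2 folds of Crtc knockout over control heads (y axis, shrunken, ± SE) for noe, CR44922 and CR42862 and for annotated genes that overlap or flank them, in fasted (red circles) and fed heads (blue squares); filled symbols have an adjusted p under 0.05. noe lies near -1.3 while its host blot lies at 1.05 and 0.69, and CR42862 lies near 0 while CG42846 beside it lies at -1.32 in fed heads.

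The most abundant member, CR42862 (FBgn0262109, chromosome 3L:224106-230964, plus strand, 3 exons), was called in no comparison. Its base mean was 23441 over the knockout and 25902 over the control libraries in the authors' deposited fasting tables. After centring on the median of the 6327 genes, the log2 ratio of these base means, knockout over control, was 0.09 for CR42862. In knockout over control heads its folds in the authors' deposited tables were -0.09 ± 0.18 for fasted heads (adjusted p = 0.999) and 0.20 ± 0.13 for fed heads (adjusted p = 0.748). Its SEs were the smallest of the 21. CG42846, which lies 6 bases away on the opposite strand, was lower in fed knockout heads, with a fold of -1.32 ± 0.24 and an adjusted p of 5.25e-06 in the authors' deposited table. On fasting it rose in knockout heads, with a fold of 0.95 ± 0.28 and an adjusted p of 0.0264 in the authors' deposited table. CG33229, which shares 246 exon bases with CR42862 on the same strand, stood at -0.33 ± 0.21 in fasted and -0.26 ± 0.17 in fed heads in the authors' deposited tables, neither called. Reads from the shared bases may have been counted for either gene.

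Among the other 19 lncRNAs, folds of knockout over control ran between -0.55 and 0.39 in fasted heads and between -0.28 and 0.20 in fed heads in the authors' deposited tables. The lowest in both was CR44024, on chromosome 4, at -0.55 ± 0.24 (adjusted p = 0.232) and -0.28 ± 0.21 (adjusted p = 0.855) in the authors' deposited tables. The highest in fasted heads was CR31781, whose 4 exons lie at chromosome 2L:16869346-16878300, at 0.39 ± 0.22 (adjusted p = 0.55 in the authors' deposited table). Hsromega stood at -0.22 ± 0.21 in fasted and 0.06 ± 0.21 in fed heads in the authors' deposited tables with neither called. The plot of genotype folds shows noe and CR44922 apart from these 19.

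**Figure D4:**
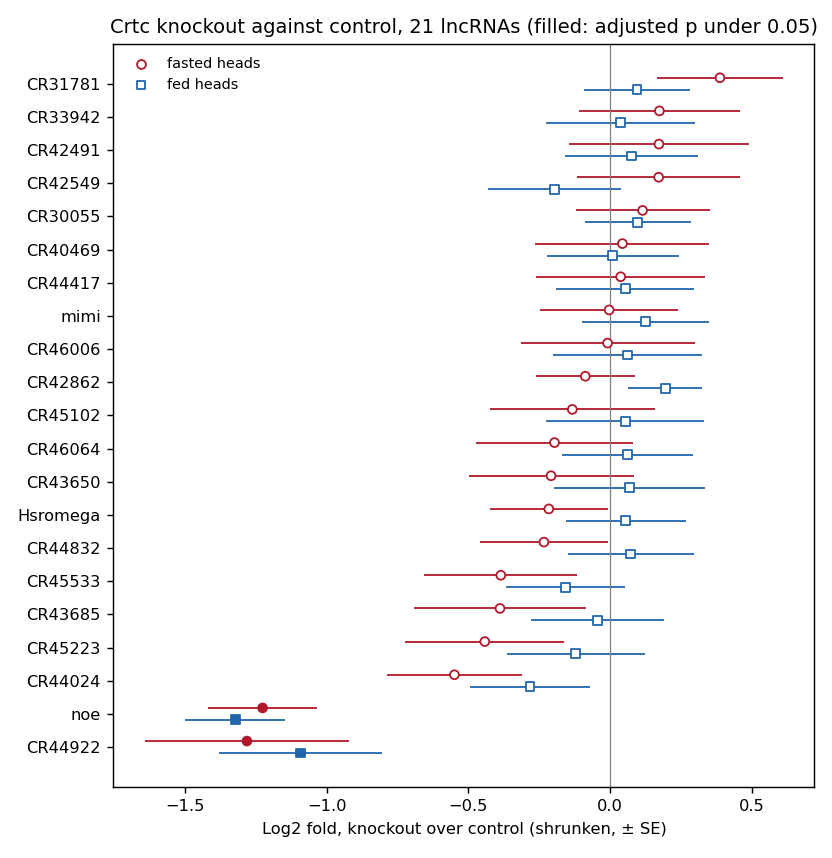
Log2 folds of Crtc knockout over control heads (x axis, shrunken, ± SE) for the 21 lncRNAs, in fasted (red circles) and fed heads (blue squares), ordered by the fold in fasted heads; filled symbols have an adjusted p under 0.05. noe and CR44922 lie below -1 in both states, and the other 19 lie between -0.55 and 0.39.

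Fasting called none of the 21 lncRNAs in either genotype, and most of their folds lay slightly below 0. By the authors' DESeq2 test 0 of 21 were called in knockout and 0 of 21 in control heads, where 3.26% and 3.84% of all genes were. At an unadjusted p under 0.05 the counts were 3 in knockout and 2 in control heads in the authors' deposited tables. The rule used these tables, so nothing is read from the counts. Folds were below 0 for 16 of 21 in knockout heads, with a median of -0.30, and for 15 of 21 in control heads, with a median of -0.12, in the authors' deposited tables. Over all genes with an adjusted p the medians were -0.02 and -0.01, and 53.9% and 52.4% lay below 0. The fasting tables of the genotypes share no library, but in each the fed group holds a library of the set without fasted heads. In both of them 14 of the 21 lay below 0 (66.7%), against 37.6% of the 6327 genes at the same base mean threshold.

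Several cell type marker lists had fasting calls. Of 14 muscle genes 0 were called in knockout heads (median -0.02), and 5 were called lower in control heads (median -0.52, 14 of 14 below 0), in the authors' deposited tables. Fat body genes were called lower for 3 of 12 in knockout heads (median -0.27) and 5 of 11 in control heads (median -0.80) in the authors' deposited tables. Of 7 glial genes 2 were called higher in knockout heads (median -0.23) and 1 lower in control heads (median -0.35) in the authors' deposited tables. None of 10 photoreceptor genes was called, with medians of -0.04 in knockout and 0.20 in control heads in the authors' deposited tables. Neuronal genes were not called either. In knockout heads 11 of 11 lay below 0, with a median of -0.33 and a range of -0.42 to -0.15, and in control heads 10 of 11 did, with a median of -0.22 and a range of -0.31 to 0.04, in the authors' deposited tables. The summed base means of the neuronal genes were 35378 over the knockout and 41348 over the control libraries, without centring. The median log2 ratio of base means, knockout over control, was -0.23 over 6327 genes. These sums are therefore not read as a difference between genotypes. The part of any of these lists in the lncRNA folds was not tested.

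CR33942 (FBgn0062961, chromosome 2R:18711391-18711951, plus strand), described in flies as a lncRNA that strengthens innate immune responses, had the highest fasting fold in both genotypes. Its base mean was 93.1 over the fasted libraries of both genotypes and 38.1 over the fed libraries in the authors' deposited tables. The log2 ratio of these base means, fasted over fed, was 0.98 after centring on the median of 0.31 over the 6327 genes. By the authors' deposited tables, its fold was 0.77 ± 0.27 in knockout (adjusted p = 0.123) and 0.61 ± 0.26 in control heads (adjusted p = 0.267), so neither passed the threshold. Its nearest protein-coding gene, Vps51 at 525 bases on the opposite strand, stood at -0.04 ± 0.24 and -0.07 ± 0.22 in the authors' deposited tables. CR42549 stood next in knockout heads at 0.41 ± 0.25, with 0.02 ± 0.25 in control heads, in the authors' deposited tables.

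Hsromega (FBgn0001234, chromosome 3R:21296127-21317836, plus strand), the stress-induced RNA of the omega speckles, did not pass on fasting. In the authors' deposited tables its folds were -0.46 ± 0.23 in knockout (adjusted p = 0.545) and -0.22 ± 0.20 in control heads (adjusted p = 0.998). Of 6 omega speckle and nuclear hnRNP protein genes, among them Hrb87F and sqd, 0 were called in any of the authors' deposited tables. Their median fasting fold was -0.19 in knockout heads, with 6 of 6 below 0, and 0.00 in control heads, with 3 of 6 below 0, in the authors' deposited tables.

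A list of 17 lncRNAs known by a given name, which did not hold CR33942, had 12 in the tables, and of these Hsromega and noe were among the 21. Of the other 10, let-7 complex host let7C had a base mean of 16.4 over the knockout and 21.6 over the control libraries in the authors' deposited tables. IBIN, a gene induced by infection whose symbol lacks the prefix, had 6.34 over the knockout and 65.4 over the control libraries. Its genotype folds of -0.44 ± 0.36 in fasted and -0.45 ± 0.20 in fed heads were not called in the authors' deposited tables.

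Hosts of microRNAs were found among the 21 by overlap of exons on the same strand. Hsromega covers mir-4951, mimi (chromosome 3R:23983503-23985065, plus strand) covers most of mir-9381, CR43650 covers mir-8, and CR46006 covers mir-276a. mir-8 is known in flies to act on body growth through insulin signalling in the fat body, and mir-276a on memory in the brain. All 4 hosts lay below 0 on fasting, at -0.56 ± 0.29 in knockout and -0.35 ± 0.25 in control heads for CR43650, and at -0.40 ± 0.28 and -0.30 ± 0.27 for CR46006, in the authors' deposited tables. mimi stood at -0.18 ± 0.27 in knockout and -0.08 ± 0.19 in control heads in the authors' deposited tables. No host had an adjusted p under 0.05 in the authors' deposited tables. The hairpins of mir-8, mir-276a and mir-4951 have a base mean of 0 in both fasting tables, so nothing can be said here of the microRNAs themselves.

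Small nucleolar RNA hosts, the Uhg genes, lack the lncRNA: prefix and serve as a comparison. Of 8 listed, 7 were found, and 7 of 7 lay below 0 on fasting in knockout heads, and 6 of 7 in control heads, in the authors' deposited tables. Over the 6 with an adjusted p the medians were -0.34 in knockout and -0.14 in control heads, and none was called on fasting. By the authors' deposited tables Uhg2 was lower in knockout heads when fed, at -1.08 ± 0.25 (adjusted p = 0.000625), and stood at -0.94 ± 0.34 when fasted (adjusted p = 0.0892). The proteins that work with such RNAs did not change past the threshold: 0 of 5 snoRNP genes found of 8 listed and 0 of 11 nuclear exosome genes were called in any of the authors' deposited tables. Their median fasting folds were -0.15 and 0.01 in knockout heads and -0.02 and 0.03 in control heads in the authors' deposited tables.

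**Figure D5:**
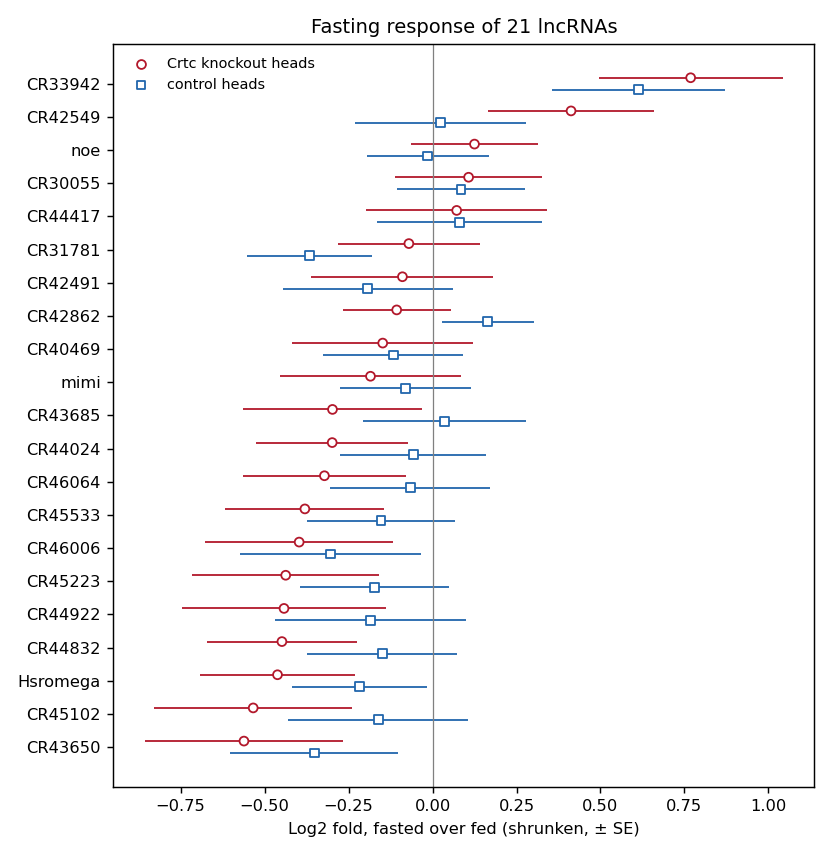
Log2 folds of fasted over fed heads (x axis, shrunken, ± SE) for the 21 lncRNAs, in Crtc knockout (red circles) and control heads (blue squares), ordered by the fold in knockout heads; open symbols have an adjusted p of 0.05 or more, as all do. CR33942 lies highest in both, at 0.77 and 0.61, and 14 of 21 lie below 0 in both.

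For none of the 21 did the test of the difference between genotypes in the fasting response pass. The difference of the log2 folds, knockout minus control, passed for 0 of 21 (smallest adjusted p = 1.00, 0 at an unadjusted p under 0.05), against 0.802% of 8474 genes tested. Its median was -0.21, against -0.01 over all genes tested, with 15 of 21 below 0. The lowest value was that of CR45102 at -0.37 ± 0.40 and the highest that of CR42549 at 0.39 ± 0.35, with 95% intervals of -1.15 to 0.41 and -0.31 to 1.08. Such intervals still allow a difference of about 1 on the log2 scale. The same difference taken from the tables of knockout against control was -0.19 ± 0.40 for CR45102 and 0.37 ± 0.37 for CR42549.

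None of the remaining lncRNAs was called in the authors' deposited tables. CR40469 (chromosome X:122493-122706) had a base mean of 291 over the knockout and 320 over the control libraries, and its folds in the authors' deposited tables, from -0.15 ± 0.27 to 0.04 ± 0.31, straddled 0. CR44832 (276 over the knockout and 331 over the control libraries) stood at -0.45 ± 0.22 on fasting in knockout and -0.15 ± 0.22 in control heads in the authors' deposited tables. The lncRNA CR31781 (335 over the knockout and 336 over the control libraries) had the order reversed, with -0.07 ± 0.21 on fasting in knockout and -0.37 ± 0.19 in control heads in the authors' deposited tables. CR45102 (173 over the knockout and 196 over the control libraries) lies 184 bases from Mnt, the fly's Max-binding repressor of the Myc network, on the same strand. On fasting CR45102 stood at -0.53 ± 0.29 and Mnt at -0.30 ± 0.21 in knockout heads, and at -0.16 ± 0.27 and 0.04 ± 0.19 in control heads, in the authors' deposited tables. CR30055 (162 over the knockout and 174 over the control libraries), inside the corepressor gene Sin3A on the opposite strand, stood between 0.08 and 0.12 in the 4 authors' deposited tables. Sin3A stood between -0.13 and 0.01 in the authors' deposited tables. CR45533, CR46064, CR45223 and CR43685 each stood below 0 on fasting in knockout heads, between -0.44 and -0.30, and closer to 0 in control heads, between -0.17 and 0.04, in the authors' deposited tables.

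The 21 lncRNAs are spread over the genome and often sit at other genes. By arm, 1 lies on 2L, 5 on 2R, 3 on 3L, 6 on 3R, 1 on chromosome 4 and 5 on X. Of the 21, 11 have a single exon, and annotated exon length runs from 0.214 to 21.7 kb with a median of 2.06 kb. For 12 the nearest non-overlapping protein-coding gene lies within 1 kb. A protein-coding gene overlaps 7 of them: noe within blot, CR42862 with CG33229, CR30055 within Sin3A, CR44417 within Mapmodulin, CR45223 with CG14322, CR42549 with mura and CR42491 with RpL22. CR42549 shares 97 exon bases with mura and CR42491 shares 377 with the ribosomal protein gene RpL22, on the same strand, and reads there may have been counted for either. CR45223 shares 477 exon bases with CG14322 on the opposite strand, and no source used here says whether reads were counted by strand. Apart from blot, these overlapping genes had no adjusted p under 0.05 in the authors' deposited tables. CR44417 stood between 0.04 and 0.08 in the authors' deposited tables. CR42491 and RpL22 stood on opposite sides of 0 on fasting, at -0.09 ± 0.27 and 0.30 ± 0.26 in knockout heads and -0.19 ± 0.25 and 0.26 ± 0.25 in control heads in the authors' deposited tables, within their errors.

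Of 12 nearest protein-coding genes whose base mean reached 10, 2 were called on fasting in knockout heads and 0 in control heads, while in knockout against control 0 were called in fasted and 1 in fed heads, in the authors' deposited tables. Those on fasting were Sfxn1-3 beside CR44922 and CG42846 beside CR42862. Sfxn1-3, whose human relative SFXN1 carries serine into mitochondria, rose by 0.84 ± 0.20 in knockout heads (adjusted p = 0.00203) and stood at 0.49 ± 0.17 in control heads (adjusted p = 0.075), by the authors' deposited tables. CR44922, 999 bases away on the same strand, stood at -0.44 ± 0.30 in knockout and -0.18 ± 0.28 in control heads in the authors' deposited tables. Over these 12 pairs, Pearson's r between the fold of a lncRNA and that of its nearest gene was -0.25 in fasted and -0.15 in fed heads, knockout against control, and Spearman's rho was -0.15 and 0.27, a description over pairs from the same libraries. For fasting, r was -0.01 in knockout and -0.19 in control heads, and rho was 0.22 and -0.23, described likewise.

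Just inside the threshold stood CR42491, CR44417 and CR43685, whose smaller base means were 54.4, 53.7 and 53.5. Just outside stood CR44317 at 49.1, CR42861 at 48.1 and CR43199 at 47.9. In all, 12 lncRNA genes passed in 1 table only. Of these, CR43199, CR45473, CR44366, CR43411, CR44317 and CR43417 were called between genotypes in neither feeding state. Some of the others stood further apart between genotypes than any of the 21, as the rule makes likely. CR32368 had a base mean of 24.1 over the knockout and 287 over the control libraries, with folds of -2.84 ± 0.27 in fasted (adjusted p = 4.8e-23) and -2.74 ± 0.21 in fed heads (adjusted p = 1.32e-35) in the authors' deposited tables. CR45973 had 0.859 over the knockout and 84.4 over the control libraries, at -2.70 ± 0.35 in fasted and -2.87 ± 0.28 in fed heads in the authors' deposited tables. CR44506 had 7.88 and 51.0, at -1.55 ± 0.35 in fasted and -1.46 ± 0.28 in fed heads in the authors' deposited tables. CR44043 ran the other way, with 59.1 over the knockout and 1.90 over the control libraries and folds of 2.42 ± 0.35 (adjusted p = 8.67e-10) and 2.58 ± 0.28 (adjusted p = 2.36e-17) in the authors' deposited tables. CR32368 and CR45973 lie on 3L, at 9.74 and 2.74 Mb from Crtc, while CR44506 and CR44043 lie on 2R. Counting all other lncRNA genes with an adjusted p, 10 of 219 were called in fasted heads (2 higher, 8 lower in knockout), or 4.57%, against 5.39% of all genes. In fed heads 16 of 286 were called (6 higher, 10 lower), or 5.59%, against 4.75% of all genes. Fasting called 1 of 245 in knockout heads, or 0.41%, against 3.26% of all genes. In control heads it called 1 of 143, or 0.70%, against 3.84%.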

How the data were processed

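STAR, TopHat2, DESeq2 and Cuffdiff, and the builds dm6 and dm3, appear in the submitters' processing notes without versions or roles. Aligner, counting and strand use behind the tables are not given in the sources used here. Per the file headers, the base mean (a signal) in each of the 4 deposited tables averages normalized counts over libraries, beside a log2 fold with its SE, a Wald score, a p-value and an adjusted p-value from the authors' DESeq2 run. SEs have a ceiling in each table (0.315, 0.285, 0.359 and 0.288 for knockout fasting, control fasting, fasted and fed knockout against control), the form a normal prior gives, so the deposited log2 folds are taken as shrunken towards 0. Depth per library is unknown. The tables' names number the libraries otherwise than the labels. The labels list 10 head libraries for the 4 comparisons, and this list was used. The other 11 of 21 samples are not analysed here.

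Symbols came from an Ensembl name table (306 identifiers without a symbol, 140 of them past the base mean threshold, could not be judged). Positions, overlaps (transposons left out) and exon lengths came from Ensembl's annotation of BDGP6.54, release 115, matched by identifier. Genes were called at the authors' adjusted p under 0.05. The difference of fasting responses was tested per gene as the difference of folds over the root of the summed squared SEs, two-sided normal p, Benjamini-Hochberg over 8474 genes with base means of at least 10 in both tables (Python 3.11.15, NumPy 2.4.6, pandas 2.3.3, SciPy 1.17.1). It was also run on simulated folds with normal noise of the authors' SEs. That simulation had no shrinkage and no libraries, so it cannot show how the test behaves on shrunken folds. Named were called members, the 10 with the highest smaller base mean, members on the lists (described lncRNAs, of which 12 of 17 were found and 2 are members, Hsromega and noe), those nearest the threshold, and overlapping or nearest genes; other names were chosen after their values were seen. Members and lists were chosen with earlier results of these data known. Alternatives varied thresholds, adjustment, the base mean minimum and overlap.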

Additional observations from a re-analysis of the deposited data

How the results depend on the processing

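The counts of called lncRNAs on fasting (0 and 0 of 21) and in the difference of responses (0) were the same under each of 7 alternatives tried for each, a t distribution with 6 degrees of freedom and the difference taken from the genotype tables included. Most of these could not have raised a count of 0. On fasting the smallest adjusted p by the authors' DESeq2 test was 0.123 in knockout and 0.267 in control heads. This fixed the count at both other thresholds and in subsets of the 21. For the difference the smallest unadjusted p by its normal test was 0.199. Only the genotype tables and the minimum of 20 could have added a call there. In knockout against control, the count of 2 was the same in fasted and in fed heads at an adjusted p under 0.01 or 0.1, with p-values adjusted over all genes or over those whose base mean reached 50, and at a member minimum of 100 (11 genes). At a minimum of 20 (42 genes) the count was 4 in fasted and 4 in fed heads, with CR32368 and CR32111 added in fasted and CR32368 and CR43242 in fed heads. Without members that overlap a gene of another type (9 genes left) it was 1 in each, since noe lies within blot and drops out. The adjusted p of CR44922 ran from 0.008 to 0.0130 in fasted and from 0.00425 to 0.00682 in fed heads over the adjustments tried.

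No paired analysis was possible because the deposited tables hold no values per library, and no replicate was left out and no library's part in the values of CR44922 was measured for the same reason. The shrunken folds understate large changes, most where the SE is large.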
